A study of Mus musculus with 4 samples.

Results

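The genes described here encode the guidance cues and receptors of the semaphorin, plexin, neuropilin, ephrin, Eph, Slit, Robo, netrin and Unc5 families. The members were found by matching gene symbols to these families, which gave 66 of the 22488 genes listed in the deposited files; the families themselves were picked with earlier results of these data known. RNA was sequenced from cultured vascular smooth muscle cells of C57BL/6 mice, the contractile cells of the artery wall, at passages 4 to 10. The cells had been transfected for 48 hours with an siRNA against circEsyt2 (2 libraries) or with a scramble siRNA (2 libraries). circEsyt2 is a circular RNA, a closed loop whose name points to the Esyt2 gene, and a scramble siRNA is a control with no intended target. No untransfected cells are among the samples, so a gene lowered by one siRNA and a gene raised by the other look alike here. The labels do not tell replicates of separate cultures from repeats of one culture. Every p-value below is therefore a measure of the spread among these 4 libraries, which may be technical. The question is how the guidance genes differ in RNA level after the siRNA against circEsyt2.

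Guidance cues are secreted or membrane-bound proteins that attract or repel cells which carry the matching receptor. Class 3 semaphorins are secreted and usually act through a neuropilin that binds the ligand and a plexin that carries the signal into the cell. Ephrins sit on the cell surface and signal in both directions with Eph receptor tyrosine kinases on a neighbouring cell. Slits are secreted ligands of Robo receptors, and netrins signal through DCC and through the repulsive Unc5 receptors. All of these families were first known from axon pathfinding and also take part in the patterning of blood vessels and in the migration of vascular cells.

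The values are FPKM, fragments per kilobase of gene scaled to the depth of the library, and the digits of nearly every value gave back the reads behind it. The library totals solved from these digits were 3765056 and 3127224 reads in the circEsyt2 siRNA libraries and 2516428 and 4116791 reads in the scramble siRNA libraries. Whether they count all mapped reads or only those assigned to genes is not known here. In each library more genes had 2 reads than 1 read (1467 to 1873 genes against 424 to 714), as happens when both mates of a pair are counted, so 2 reads may be 1 fragment. Of 10 smooth muscle markers the actin gene Acta2 was by far the most abundant, at 883 and 829 FPKM with circEsyt2 siRNA and 1421 and 1446 FPKM with scramble siRNA. Myh11, the smooth muscle myosin of contractile cells, had 1.15 and 2.78 FPKM with circEsyt2 siRNA and 8.58 and 7.77 FPKM with scramble siRNA, and Des and Myocd lay near or below 1 FPKM in every library. Some genes on the fibroblast marker list were abundant too. Dcn had 205 and 192 FPKM with circEsyt2 siRNA and 184 and 190 FPKM with scramble siRNA. Thy1 had 14.1 and 12.9 FPKM with circEsyt2 siRNA and 62.8 and 58.4 FPKM with scramble siRNA, and limma called it lower, with Pdgfra and Mfap5. Pi16 lay below 1 FPKM in every library. These lists therefore do not separate smooth muscle cells from fibroblasts here. Replicate 1 of the circEsyt2 siRNA group stood apart by liver transcripts, led by albumin (Alb), which had 2083 and 65.7 FPKM with circEsyt2 siRNA and 9.16 and 1.66 FPKM with scramble siRNA. The 12 hepatocyte markers found in the files summed to 3423 and 107 FPKM in the circEsyt2 siRNA libraries (replicates 1 and 2) and to 13.5 and 4.63 FPKM in the scramble siRNA libraries. Limma called 0 of the 12, whose circEsyt2 siRNA replicates lay far apart. Replicate 2 of that group also summed above both scramble siRNA libraries. The called genes are therefore given with and without circEsyt2 siRNA replicate 1. Leaving it out lowers the liver signal without removing it.

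The guidance genes ranged from near 0 to 89.7 FPKM. Averaged over the 4 libraries, 11 genes lay at or above 10 FPKM, 26 lay between 1 and 10 FPKM and 29 lay below 1 FPKM. Sema3c, a secreted class 3 semaphorin known for its part in forming the cardiac outflow tract, was the most abundant of them and stood at rank 857 of all listed genes by mean FPKM. No other guidance gene was among the 1000 most abundant genes. The neuropilins, Plxna1, Plxnb2, Efnb1, Efnb2, Epha2, Slit2, Slit3 and Unc5b were the other genes at or above 10 FPKM, so each signalling system had a ligand or a receptor there. The class 4 to 7 semaphorins, ephrin-A ligands, EphB receptors, Robos and netrins had no gene at that level.

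**Figure D1:**
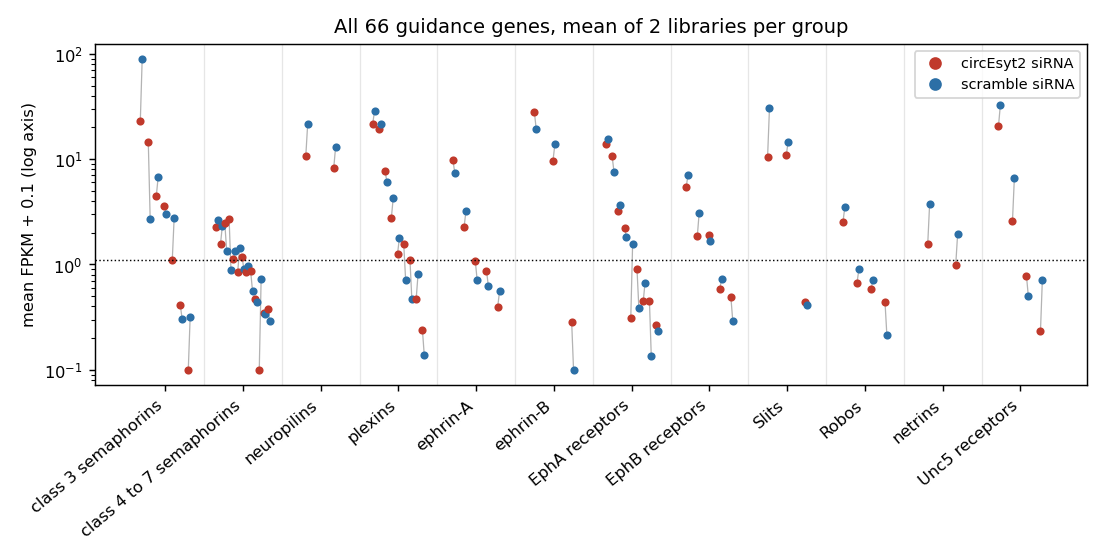
Mean FPKM of each of the 66 guidance genes, plus 0.1 so that a value of 0 can be drawn, on a log axis, by family. Red points are circEsyt2 siRNA and blue points scramble siRNA (means of 2 libraries), a grey line joins the 2 values of a gene, and the dotted line marks a mean of 1 FPKM. The longest drop among the abundant genes is that of Sema3c, and Sema3e, in the same family, lies the other way.

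Of the 66 genes, 37 had a mean of at least 1 FPKM and were tested, within a limma fit over all 11290 genes at that level. With circEsyt2 siRNA 4 of the 37 were lower (Sema3c, Nrp2, Slit3 and Unc5c) and 1 was higher (Sema3e), at a Benjamini-Hochberg adjusted p under 0.05, and 32 were not called. Those 5 genes are 13.5% of the 37, against 12.7% of all tested genes called in either direction, and this difference was not tested. By direction, 7.26% of all tested genes were called lower and 5.47% higher. The median log2 fold change of the 37 was −0.37, against 0.00 for all tested genes, with 26 estimates below 0 and 11 above. Both circEsyt2 siRNA libraries lay below both scramble siRNA libraries for 21 of the 37 genes, against 31.1% of all tested genes, and above both for 7, against 29.7%. Taken in either direction, the groups of 60.7% of all tested genes did not overlap. Limma voom on the recovered reads called 10 of the 36 guidance genes in its fit, 2 higher and 8 lower, where it called 7.98% of all genes higher and 10.5% lower (18.5% in all). In bulk RNA, fewer cells that express a gene and less RNA per cell cannot be told apart.

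**Figure D2:**
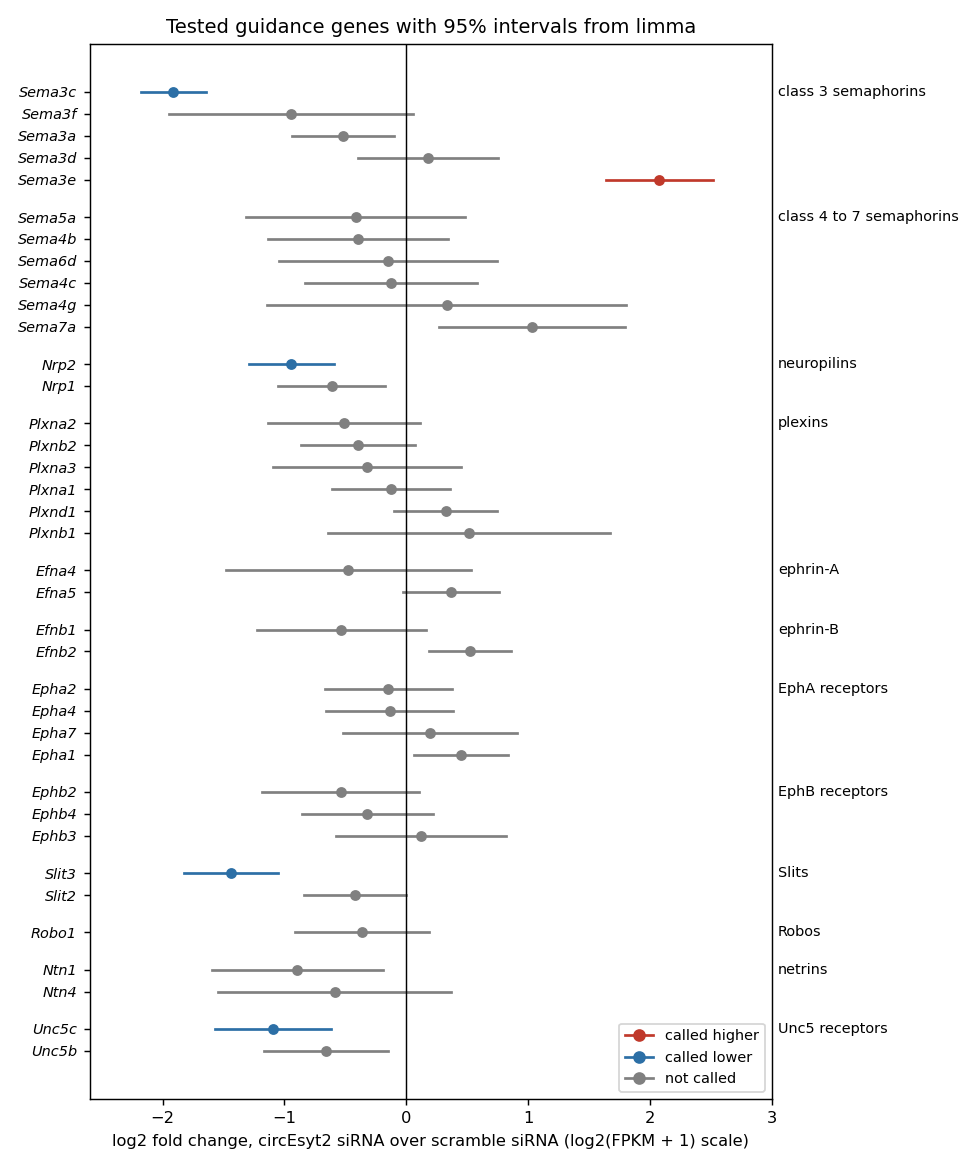
Log2 fold change of each of the 37 tested guidance genes, circEsyt2 siRNA over scramble siRNA, with its 95% interval from limma, by family. Blue marks the 4 genes called lower, red the 1 called higher and grey the 32 not called. Sema3c and Sema3e lie farthest from 0, on opposite sides.

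The secreted class 3 semaphorins held the 2 largest changes, in opposite directions. Sema3c had 23.0 and 22.4 FPKM in the circEsyt2 siRNA libraries, against 89.7 and 86.7 FPKM in the scramble siRNA libraries. The replicates of each group lay close together and the groups did not overlap. Sema3c thus averaged 22.7 ± 0.448 FPKM with circEsyt2 siRNA and 88.2 ± 2.08 FPKM with scramble siRNA (SD, n = 2 each), 3.88-fold lower, with a log2 fold change of −1.91 (SE 0.11; limma, Benjamini-Hochberg adjusted p = 0.00256). Between 500 and 2549 reads stood behind each value. Sema3e, a class 3 semaphorin known to bind plexin D1 without a neuropilin, had 13.0 and 15.7 FPKM with circEsyt2 siRNA, against 2.48 and 2.77 FPKM with scramble siRNA. Both circEsyt2 siRNA libraries were above both scramble siRNA libraries. Its mean was 14.3 ± 1.88 FPKM with circEsyt2 siRNA and 2.63 ± 0.206 FPKM with scramble siRNA (SD, n = 2 each), 5.46-fold higher, with a log2 fold change of 2.08 (SE 0.18; limma, Benjamini-Hochberg adjusted p = 0.00425). It rested on 455 and 455 reads in the circEsyt2 siRNA libraries and 58 and 106 reads in the scramble siRNA libraries. Within a library the scaling cancels: the ratio of Sema3c to Sema3e FPKM was 1.77 and 1.43 with circEsyt2 siRNA and 36.1 and 31.3 with scramble siRNA. Both calls held without circEsyt2 siRNA replicate 1, the library with the high hepatocyte markers (adjusted p = 0.00963 for Sema3c and adjusted p = 0.0123 for Sema3e, limma). Both were lost without either scramble siRNA library (adjusted p = 0.110 to 0.170 for each gene, limma), where limma called 0 genes of any kind although 1959 (without replicate 1) and 2231 (without replicate 2) had an unadjusted p under 0.05. The same holds for Nrp2, Slit3 and Unc5c below (adjusted p = 0.110 to 0.238, limma).

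**Figure D3:**
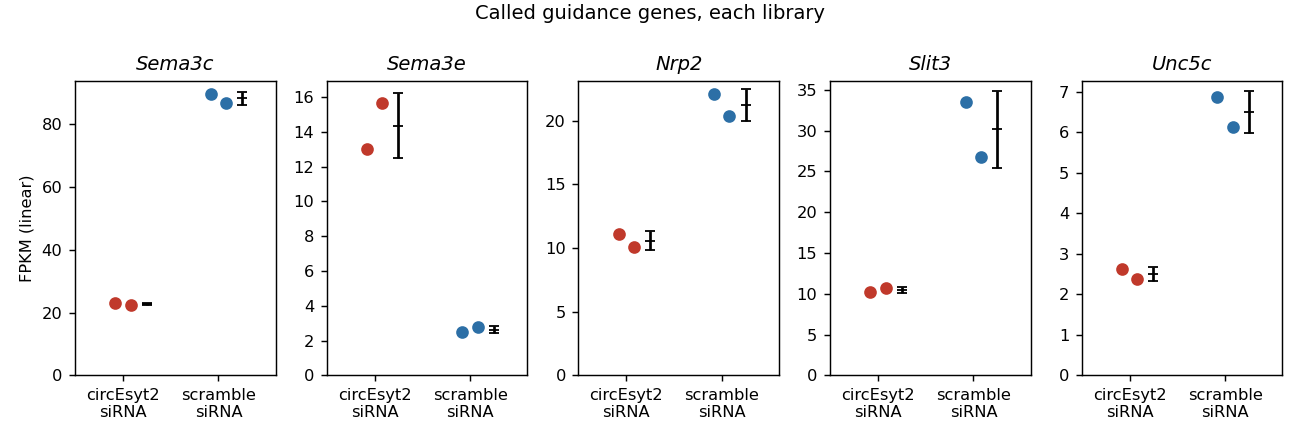
FPKM (linear axes from 0) of the 5 called guidance genes in each library, red for circEsyt2 siRNA and blue for scramble siRNA, with the mean ± SD of 2 libraries in black. In each panel the groups do not overlap, and Sema3e is the gene whose circEsyt2 siRNA libraries are the higher ones.

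Sema3c and Sema3e share a chromosome. Of the 7 class 3 semaphorin genes, 4 lie on the plus strand of mouse chromosome 5 within 5.35 Mb (GRCm38, GENCODE M21), in the order Sema3d, Sema3a, Sema3e and Sema3c. Sema3e spans 14025276 to 14256689 and Sema3c spans 17574281 to 17730268. Along that order the log2 fold changes were 0.18, −0.52, 2.08 and −1.91, and of these 4 genes Sema3e and Sema3c were the called ones. Sema3a, a repellent ligand of neuropilin 1, had 4.25 and 4.45 FPKM with circEsyt2 siRNA and 6.71 and 6.62 FPKM with scramble siRNA (limma adjusted p = 0.102; voom adjusted p = 0.0232). Sema3d had 2.97 and 3.94 FPKM with circEsyt2 siRNA and 2.68 and 3.17 FPKM with scramble siRNA, and its groups overlapped. Sema3a and Sema3d were chosen after their values were seen. No exon of another annotated gene overlaps an exon of Sema3c, Sema3e, Slit3 or Nrp2 in GENCODE M21.

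The windows before the annotated start sites of the 5 called genes differed in base composition. In the 250 bases before the RefSeq start (GRCm38.p6), Sema3e had 48.0% G and C and 7 CG pairs, where the median of all 32851 such windows was 52.4% and 6 pairs. Sema3c had 78.4% and 39 pairs, Slit3 78.8% and 35 pairs, Nrp2 72.4% and 32 pairs, and Unc5c 71.2% and 23 pairs. The windows of Sema3c and Unc5c lie wholly, and that of Slit3 all but 18 bases, past the first base of the gene's first GENCODE M21 exon, so they are not upstream sequence by that annotation and are not set against that of Sema3e. The 2 stretches shown are those that lie upstream by both annotations, Sema3e as the gene that rose and Nrp2, a semaphorin receptor, as one that fell. They lie on the plus strand at chr5:14025026-14025275 and chr1:62703067-62703284, are written 5′ to 3′, stop before the first annotated exon, and carry in capitals each match to the GC box GGGCGG on either strand.
Sema3e: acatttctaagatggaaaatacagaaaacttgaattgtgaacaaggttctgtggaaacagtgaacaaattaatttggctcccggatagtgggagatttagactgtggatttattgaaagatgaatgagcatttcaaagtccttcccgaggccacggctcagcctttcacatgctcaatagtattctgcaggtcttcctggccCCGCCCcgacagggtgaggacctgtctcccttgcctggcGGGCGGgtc
Nrp2: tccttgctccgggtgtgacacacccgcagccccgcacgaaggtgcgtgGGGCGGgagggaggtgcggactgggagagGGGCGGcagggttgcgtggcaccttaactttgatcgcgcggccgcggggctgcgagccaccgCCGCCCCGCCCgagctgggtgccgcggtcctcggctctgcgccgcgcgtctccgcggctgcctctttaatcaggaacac
A GC box was found 2 times in the Sema3e window, 5 times in that of Nrp2 (4 of them in the stretch shown, 2 of which overlap), 3 times in that of Sema3c, 6 times in that of Slit3 and 0 times in that of Unc5c, and 32.7% of all windows held one. None of the 5 windows held, on either strand, a TATA box (TATAAA, in 12.4% of all windows) or a CCAAT box (the letters CCAAT, in 33.8%). For Sema3c, Slit3 and Unc5c this reads mostly sequence past the GENCODE M21 start. None held an AP-1 element (TGANTCA, in 6.75%), the amino acid response element TGATGNAA (in 3.45%) or a CArG box (in 1.47%).

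The opposite movement of Sema3c and Sema3e changed the make-up of the class 3 semaphorins. Sema3c made up 52.5% and 46.2% of their summed FPKM with circEsyt2 siRNA, against 85.9% and 84.6% with scramble siRNA. Sema3e made up 29.7% and 32.3% with circEsyt2 siRNA, against 2.38% and 2.70% with scramble siRNA. Sema3f, a ligand of neuropilin 2, had 0.358 and 1.66 FPKM with circEsyt2 siRNA and 2.91 and 2.43 FPKM with scramble siRNA (log2 fold change −0.95, SE 0.41; limma adjusted p = 0.183). Its circEsyt2 siRNA values rest on 7 and 27 reads and lie far apart, and the groups did not overlap. The estimate was −0.46 without circEsyt2 siRNA replicate 1, −1.43 without replicate 2 and −1.82 with voom. Sema3b and Sema3g were below 1 FPKM in every library.

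Among the 13 membrane-bound semaphorins of classes 4 to 7 none was called, and 6 were tested. Their estimates ran from −0.42 for Sema5a to 1.03 for Sema7a. Sema7a, the semaphorin held by a lipid anchor that can bind integrins, had 2.50 and 2.71 FPKM with circEsyt2 siRNA, against 0.964 and 0.589 FPKM with scramble siRNA. The groups did not overlap, but the values rest on 31 and 28 reads against 8 and 8 reads, and the gene did not pass the test (log2 fold change 1.03, SE 0.31; limma adjusted p = 0.0847). Sema4c, the most abundant of these genes, had 2.08 and 2.30 FPKM with circEsyt2 siRNA and 1.90 and 3.17 FPKM with scramble siRNA, with a 95% interval of the log2 fold change from −0.83 to 0.58. The groups overlapped. An exon of the antisense gene D430040D24Rik overlaps Sema4c.

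Among the semaphorin receptors, neuropilin 2 was called and no plexin was. Nrp2 (chromosome 1, 62703285 to 62818695, plus strand), the co-receptor that binds Sema3c and Sema3f and also VEGF-C, had 11.1 and 10.0 FPKM with circEsyt2 siRNA, against 22.1 and 20.4 FPKM with scramble siRNA. The groups did not overlap, and the means were 10.6 ± 0.747 FPKM with circEsyt2 siRNA and 21.2 ± 1.23 FPKM with scramble siRNA (SD, n = 2 each). This was a 2.01-fold lower level, with a log2 fold change of −0.94 (SE 0.14; limma, Benjamini-Hochberg adjusted p = 0.0138). The call held without circEsyt2 siRNA replicate 1 (adjusted p = 0.0303, limma) and was lost without replicate 2 (adjusted p = 0.0682, limma). Nrp1, the neuropilin of Sema3a and of VEGF-A, chosen after its values were seen, had 7.27 and 9.15 FPKM with circEsyt2 siRNA, against 11.98 and 14.1 FPKM with scramble siRNA. It lay below in both libraries without passing the test (log2 fold change −0.61, SE 0.18; limma adjusted p = 0.0774), though it was called by voom (adjusted p = 0.0187). The ratio of Nrp2 to Nrp1 FPKM was 1.53 and 1.098 with circEsyt2 siRNA and 1.85 and 1.44 with scramble siRNA, and these overlap; the difference between the changes of both genes was not tested.

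The 6 tested plexins had estimates from −0.51 for Plxna2 to 0.51 for Plxnb1, whose mean is below 1 FPKM without circEsyt2 siRNA replicate 1. Plxnb2, a receptor of class 4 semaphorins and the most abundant plexin, had 18.5 and 24.2 FPKM with circEsyt2 siRNA and 32.02 and 24.9 FPKM with scramble siRNA (log2 fold change −0.40, 95% interval −0.87 to 0.07), and an estimate of −0.21 without circEsyt2 siRNA replicate 1 and −0.22 without scramble siRNA replicate 1. Plxna1, a signalling partner of the neuropilins, had 18.0 and 20.1 FPKM with circEsyt2 siRNA and 25.1 and 17.4 FPKM with scramble siRNA, and the groups overlapped; its estimate of −0.13 was 0.12 without scramble siRNA replicate 1. Plxnd1, the receptor that Sema3e binds, had 7.17 and 8.10 FPKM with circEsyt2 siRNA and 6.37 and 5.46 FPKM with scramble siRNA (log2 fold change 0.32, 95% interval −0.10 to 0.75; limma adjusted p = 0.266). Plxna1 and Plxnd1 were chosen after their values were seen. The ligand Sema3e was thus called and its receptor gene was not.

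In the Slit system the ligand Slit3 fell. Slit3 (chromosome 11, 35121224 to 35708507, plus strand), a secreted Slit known from diaphragm and vessel development, had 10.2 and 10.7 FPKM with circEsyt2 siRNA, against 33.5 and 26.8 FPKM with scramble siRNA. Its means were 10.4 ± 0.353 FPKM with circEsyt2 siRNA and 30.1 ± 4.70 FPKM with scramble siRNA (SD, n = 2 each), 2.88-fold lower, and the log2 fold change was −1.44 (SE 0.16; limma, Benjamini-Hochberg adjusted p = 0.00605). Between 203 and 670 reads stood behind each value. The call held without circEsyt2 siRNA replicate 1 (adjusted p = 0.0203, limma) and was lost without replicate 2 (adjusted p = 0.0513, limma). Slit2, the other Slit tested, had 9.30 and 12.2 FPKM with circEsyt2 siRNA and 14.4 and 14.8 FPKM with scramble siRNA, chosen after its values were seen (log2 fold change −0.42, SE 0.17; limma adjusted p = 0.167). Its estimate was −0.24 without circEsyt2 siRNA replicate 1, and voom called it lower (adjusted p = 0.041). The ratio of Slit3 to Slit2 FPKM within a library was 1.096 and 0.879 with circEsyt2 siRNA, against 2.33 and 1.81 with scramble siRNA, without overlap. Slit1 was below 1 FPKM in every library. Of the Robo receptors Robo1 alone was tested, at 2.46 and 2.42 FPKM with circEsyt2 siRNA and 3.71 and 3.18 FPKM with scramble siRNA (log2 fold change −0.37, 95% interval −0.91 to 0.18).

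In the netrin system the receptor Unc5c fell. Dcc lay below 1 FPKM in every library. The receptor gene Neo1, from the list of partner genes below, had 10.5 and 13.0 FPKM with circEsyt2 siRNA and 11.1 and 10.6 FPKM with scramble siRNA. The Neo1 groups overlapped, and limma did not call it. Dcc and Neo1 were chosen after their values were seen. Unc5c (chromosome 3, 141465216 to 141834924, plus strand), a repulsive netrin receptor, had 2.62 and 2.39 FPKM with circEsyt2 siRNA, against 6.87 and 6.13 FPKM with scramble siRNA. The means were 2.51 ± 0.165 FPKM with circEsyt2 siRNA and 6.503 ± 0.525 FPKM with scramble siRNA (SD, n = 2 each), 2.59-fold lower, with a log2 fold change of −1.096 (SE 0.19; limma, Benjamini-Hochberg adjusted p = 0.0218). The call held without circEsyt2 siRNA replicate 1 (adjusted p = 0.0457, limma) and was lost without replicate 2 (adjusted p = 0.0874, limma). An exon of the antisense gene Gm15688 overlaps Unc5c, and reads of the 2 cannot be told apart unless strand was used in counting. Unc5b, the vascular member of the family and the most abundant, had 16.5 and 24.6 FPKM with circEsyt2 siRNA, against 34.7 and 30.4 FPKM with scramble siRNA. Its groups did not overlap and it did not pass the test (log2 fold change −0.66, SE 0.21; limma adjusted p = 0.0935). Its estimate was −0.39 without circEsyt2 siRNA replicate 1 and −0.93 without replicate 2, and voom called it lower (adjusted p = 0.0279). Ntn1, the gene of the ligand netrin 1, had 1.31 and 1.63 FPKM with circEsyt2 siRNA and 4.43 and 2.86 FPKM with scramble siRNA (log2 fold change −0.89, SE 0.28; limma adjusted p = 0.0967).

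Limma called no ephrin and no Eph receptor. Efnb2, the transmembrane ligand known as a marker of arteries, came nearest, with 26.0 and 30.0 FPKM in the circEsyt2 siRNA libraries and 18.6 and 19.7 FPKM in the scramble siRNA libraries. The groups did not overlap, and the log2 fold change was 0.52 (SE 0.14; limma adjusted p = 0.0593); voom called it higher (log2 fold change 0.54, adjusted p = 0.0230). Efnb1, chosen after its values were seen, had 6.69 and 12.5 FPKM with circEsyt2 siRNA and 12.7 and 14.9 FPKM with scramble siRNA. Its estimate of −0.53 was −0.13 without circEsyt2 siRNA replicate 1 and −0.94 without replicate 2. The ratio of Efnb2 to Efnb1 FPKM was 3.88 and 2.40 with circEsyt2 siRNA, against 1.46 and 1.32 with scramble siRNA. Ephb4, the receptor of ephrin-B2 that marks veins, had 5.32 and 5.24 FPKM with circEsyt2 siRNA and 8.31 and 5.60 FPKM with scramble siRNA (log2 fold change −0.32, 95% interval −0.86 to 0.22). Its estimate was −0.07 without scramble siRNA replicate 1 and −0.57 without replicate 2. Efna5, a lipid-anchored ephrin, had 10.1 and 9.36 FPKM with circEsyt2 siRNA and 6.80 and 7.89 FPKM with scramble siRNA (log2 fold change 0.37, 95% interval −0.03 to 0.76). Epha2, the most abundant Eph receptor, had 11.7 and 16.1 FPKM with circEsyt2 siRNA and 17.6 and 13.4 FPKM with scramble siRNA, so its replicates differed more than its groups. The other 3 tested EphA genes and the other 2 tested EphB genes had estimates between −0.54 for Ephb2 and 0.45 for Epha1. Epha1 shares exon sequence with the abundant gene Zyx on the other strand (209 and 246 FPKM with circEsyt2 siRNA, 222 and 205 FPKM with scramble siRNA), so part of its reads may belong to Zyx.

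Summed over all members, the families differed in how their total level moved. The class 3 semaphorins summed to 43.8 and 48.5 FPKM with circEsyt2 siRNA, against 104 and 103 FPKM with scramble siRNA, a ratio of means of 0.446. Sema3c made up 49.2% of the mean sum with circEsyt2 siRNA and 85.2% with scramble siRNA. The lower sum is thus that of Sema3c and not of the family at large, where Sema3e rose. The ratio was 0.478 for the Slits, 0.432 for the netrins, 0.548 for the neuropilins and 0.596 for the Unc5 receptors, and in these 5 families both circEsyt2 siRNA libraries lay below both scramble siRNA libraries. Of all single tested genes 31.1% did so, and no such share is known for sums. The genes called lower, Sema3c, Nrp2, Slit3 and Unc5c, all lie in these families, so the sums largely repeat those calls. The netrins hold no called gene. The plexins summed to 51.9 and 57.8 FPKM with circEsyt2 siRNA and 70.8 and 55.5 FPKM with scramble siRNA, and overlapped. The ephrin-A, ephrin-B, EphA and membrane semaphorin sums had ratios from 1.03 to 1.16. The EphB receptors had a ratio of 0.787 and the Robos one of 0.772, both without overlap. The sums were not tested, and abundant genes weigh most in them. The 5 called genes also span long stretches of the genome, from 115 to 587 kb with a median of 231 kb, where the median was 107 kb for the 37 tested guidance genes and 23.7 kb for all tested genes with a known span.

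**Figure D4:**
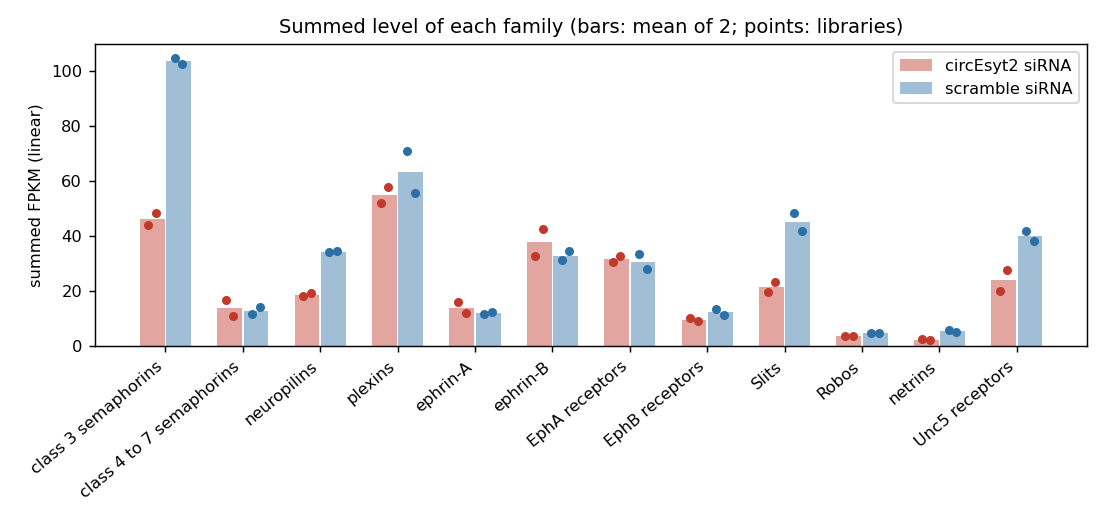
Summed FPKM of each family (linear axis from 0), with bars for the mean of 2 libraries and points for the libraries, red for circEsyt2 siRNA and blue for scramble siRNA. The class 3 semaphorin, neuropilin, Slit, netrin and Unc5 points are lower with circEsyt2 siRNA, while those of the ephrins and EphA receptors overlap.

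The 29 genes under the level filter had means from 0.0884 to 0.939 FPKM, and 17 of them had fewer than 20 reads in every library. Epha3, an Eph receptor, had 10 and 3 reads with circEsyt2 siRNA, against 35 and 48 reads with scramble siRNA. It was not called when every gene above 0 was tested (log2 fold change −1.04; limma adjusted p = 0.122). Sema6b, a transmembrane semaphorin, had 0 and 0 reads with circEsyt2 siRNA, against 7 and 9 reads with scramble siRNA, and was not called there either (adjusted p = 0.173, limma). Plxna4, a plexin of class 3 signalling, had 50 and 47 reads with circEsyt2 siRNA and 8 and 30 reads with scramble siRNA (adjusted p = 0.405, limma). These 3 were chosen after their values were seen, and few reads stand behind each value at this level.

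Genes that work with the guidance systems were listed separately, as other ligands and receptors, sheddases, and effectors inside the cell. Of 103 listed, 80 were tested, and 10 were higher and 5 lower with circEsyt2 siRNA by limma, against 5.47% and 7.26% of all tested genes. The median log2 fold change of the 80 was 0.02. Of the 13 other ligands and receptors tested, 3 were called, all higher. They were Flrt2, a ligand of Unc5 receptors, the integrin gene Itgb1, and Kdr, the VEGF receptor that pairs with neuropilins. Kdr had 4.32 and 4.00 FPKM with circEsyt2 siRNA, against 1.23 and 1.26 FPKM with scramble siRNA. Of the 63 effectors tested 7 were higher, 5 lower and 51 not called. Srgap1, a GTPase-activating protein that binds Robo receptors, rose to 6.08 and 5.85 FPKM with circEsyt2 siRNA, against 2.13 and 2.29 FPKM with scramble siRNA (log2 fold change 1.12, SE 0.20; limma adjusted p = 0.0215). Rasa1, a Ras inhibitor known to bind Eph receptors, had 52.2 and 61.3 FPKM with circEsyt2 siRNA, against 28.1 and 30.0 FPKM with scramble siRNA. The small GTPase gene Rras, a substrate of the plexin GAP domain, and the kinase genes Fyn, Src and Abl2 rose by 0.75, 0.86, 0.70 and 0.90 on the log2 scale. Pak3, a kinase downstream of Rac, fell by 1.05 and the kinase gene Abl1 by 0.87. The other called effectors, Rnd2 (higher), Dpysl2, Mical2 and Inppl1 (lower), act on the cytoskeleton or on lipid signals and, like Itgb1, were named after their values were seen. With no filter on low values Kdr (adjusted p = 0.0672, limma) and Srgap1 (adjusted p = 0.0508, limma) were not called, and limma without a variance trend called 3 of the 80 in all. Without circEsyt2 siRNA replicate 1 limma called 8, and without replicate 2 it called 1.

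The markers of other cell types were read beside these results. The smooth muscle markers had 6 of 8 tested genes lower and 0 higher by limma, and the fibroblast markers 3 of 9 lower and 0 higher. The 10 endothelial markers summed to 10.4 and 9.09 FPKM with circEsyt2 siRNA, against 5.93 and 5.68 FPKM with scramble siRNA, and no single one passed 4.32 FPKM, a value reached by Kdr, which is on that list too. Kdr, at 4.32 and 4.00 FPKM with circEsyt2 siRNA and 1.23 and 1.26 FPKM with scramble siRNA, made up most of the difference between these sums. The endothelial cadherin Cdh5 had 2.27 and 1.52 FPKM with circEsyt2 siRNA and 1.51 and 0.636 FPKM with scramble siRNA. Esam went the other way, at 0.371 and 0.223 FPKM with circEsyt2 siRNA and 1.66 and 0.593 FPKM with scramble siRNA. Macrophage markers summed to 44.5 and 9.13 FPKM with circEsyt2 siRNA and 13.3 and 16.6 FPKM with scramble siRNA. Lyz2 led the sum of replicate 1, at 21.4 and 0.972 FPKM with circEsyt2 siRNA and 1.21 and 0.923 FPKM with scramble siRNA. Csf1r had 1.74 and 0.262 FPKM with circEsyt2 siRNA and 1.87 and 3.48 FPKM with scramble siRNA. The leukocyte marker Ptprc was below 1 FPKM in every library, and limma called 0 of the 4 macrophage markers tested. Glial and neuronal markers summed to 8.26 and 13.4 FPKM with circEsyt2 siRNA and 3.87 and 7.72 FPKM with scramble siRNA. Tubb3 led each sum, at 2.84 and 9.07 FPKM with circEsyt2 siRNA and 1.49 and 4.42 FPKM with scramble siRNA. Its groups overlapped, and this 1 tested marker of the list was not called (adjusted p = 0.403, limma). Epithelial markers summed to 24.1 and 15.0 FPKM with circEsyt2 siRNA and 11.3 and 15.6 FPKM with scramble siRNA. Krt19 led the list, at 8.30 and 12.9 FPKM with circEsyt2 siRNA and 10.1 and 13.7 FPKM with scramble siRNA. Krt8 (4.07 and 0 FPKM) and Krt18 (6.84 and 0.223 FPKM) were high in circEsyt2 siRNA replicate 1 only. Limma called 0 of the 3 epithelial markers tested. No marker on these lists was at 0 in every library. The part of any of these cell types in the guidance gene levels was not tested.

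Beside the hepatocyte markers, 4 of the 66 guidance genes were at least 3-fold higher in circEsyt2 siRNA replicate 1 than in each other library. So were 6.47% of the 20745 genes above 0 in at least 1 library. The share of the guidance genes was thus close to that of all genes. Sema4g, a membrane semaphorin, had 4.20 and 0.525 FPKM with circEsyt2 siRNA and 1.39 and 1.097 FPKM with scramble siRNA. Plxnb1, the receptor of Sema4d, had 2.27 and 0.633 FPKM with circEsyt2 siRNA and 0.580 and 0.658 FPKM with scramble siRNA. Epha6 had 1.26 and 0.363 FPKM with circEsyt2 siRNA and 0.301 and 0.276 FPKM with scramble siRNA, and Epha10 had 18 and 1 reads with circEsyt2 siRNA and 0 and 2 reads with scramble siRNA. Sema4g and Plxnb1 were not called, and neither were Epha6 (adjusted p = 0.556, limma) and Epha10 (adjusted p = 0.583, limma) when every gene above 0 was tested. The estimate of Sema4g, 0.33, was −0.55 without circEsyt2 siRNA replicate 1. All 4 were chosen after their values were seen, and their tie to the liver transcripts was not tested. The 5 called genes differed less between the circEsyt2 siRNA replicates, by most for Sema3e among the semaphorins, at 13.0 and 15.7 FPKM. A limma call with 2 libraries per group favours such genes, so this is no check on the liver transcripts.

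**Figure D5:**
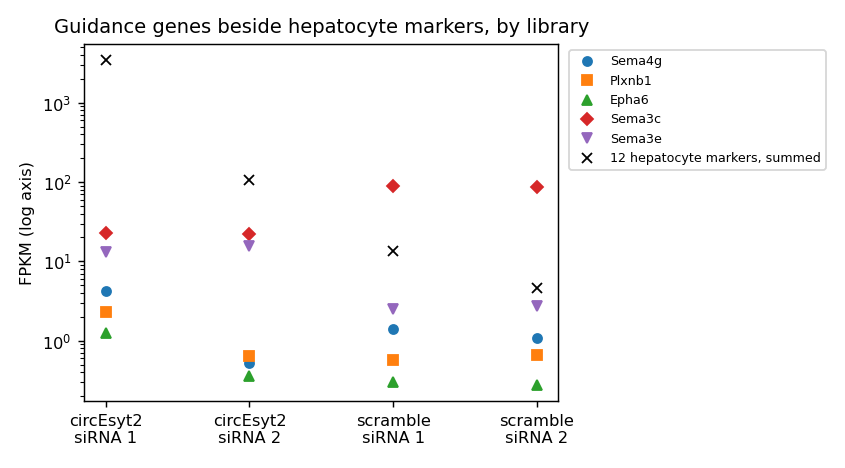
FPKM (log axis) of 3 guidance genes high in circEsyt2 siRNA replicate 1 (Sema4g, Plxnb1 and Epha6), of Sema3c and Sema3e, and of the 12 hepatocyte markers summed (crosses), in each library. In the circEsyt2 siRNA libraries Sema3c has 23.0 and 22.4 FPKM and Sema3e 13.0 and 15.7 FPKM, while the marker sum is 3423 and 107 FPKM.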

How the data were processed

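The authors deposited 1 FPKM table per library, and the FPKM unit is taken from the deposited file names. The submitters' processing notes list Trimmomatic, HISAT2 and featureCounts, and the builds GRCm38 and mm10. Tool versions, the strand setting and the counting annotation were not given in the sources used here. Library totals and reads per gene were solved from the digits of the FPKM with GENCODE M21 exon-union lengths. Between 96.5% and 96.7% of the values above 0 came out whole within 0.0001, and 244 of 248 for the guidance genes, the exception being Sema4g. At these depths 2 reads in a gene of 1 kb are worth 0.486 to 0.795 FPKM.

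The test was limma 3.58.1 in R 4.3.3 (eBayes with a trend) on log2(FPKM + 1), a scale that understates changes of low genes, for genes with a mean of at least 1 FPKM. P-values are two-sided and adjusted by Benjamini-Hochberg over all tested genes, at 0.05. The steps were tested on simulated reads with the same spread for all genes, no changed gene near the level filter and no outlying library. That test therefore does not cover a library like circEsyt2 siRNA replicate 1. RefSeq promoter windows were found for 57 of the 66 genes. Alternatives were another pseudocount, filter, scaling or variance model, voom on the recovered reads, a replicate block, and each library left out.

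Members and lists were chosen with earlier results of these data known. Genes are named if called, if the most abundant of their family, or if among the 4 largest estimates not called; partner genes if among the 10 smallest p-values called. Further guidance genes given library by library are marked where they appear.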

Additional observations from a re-analysis of the deposited data

How the results depend on the processing

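Sema3c, Sema3e, Nrp2, Slit3 and Unc5c were the 5 guidance genes called in each of the 8 fits that changed the pseudocount, filter, scaling, variance trend or replicate block, and without circEsyt2 siRNA replicate 1. Limma voom on the recovered reads called 10 guidance genes, adding Efnb2 as higher and Nrp1, Sema3a, Slit2 and Unc5b as lower, where 18.5% of all genes were called; the cause was not tested. Leaving out 1 library gave 0 to 5 called guidance genes, 0 to 1027 called genes in all (1437 with all libraries; 577 without a variance trend) and 0 to 8 called partner and effector genes. Limma called 0 without either scramble siRNA library (7 guidance genes at an unadjusted p under 0.05 each time) and 2, Sema3c and Sema3e, without circEsyt2 siRNA replicate 2. The partner count was 9 with no filter, 3 without a variance trend, 23 with voom and 9 with the replicate block, against 15. The replicate block called 5 guidance genes. Some calls lay just under the threshold of 0.05. Unc5c had an adjusted p of 0.0497 with no filter and 0.0437 without a variance trend (limma). Nrp2 had an adjusted p of 0.0492 without a variance trend (limma). The labels do not say whether same-numbered replicates belong together. Deviations of replicate 1 of each group from its group mean correlated at −0.0507 over genes, which does not settle it. The median log2 fold change of the guidance genes, −0.37, was −0.45 with a pseudocount of 0.1, −0.13 with no filter, −0.17 with a filter at 0.3 FPKM and −0.47 with voom; no filter and the lower filter add genes under 1 FPKM. The Robo sum ratio was 0.779 with median-ratio scaling. With a library left out, the log2 fold change of Epha2 ran from −0.363 to 0.0636 and was above 0 without replicate 1 of either group (0.0371 without that of scramble siRNA), and that of Sema4c ran from −0.389 to 0.135, above 0 without scramble siRNA replicate 2; neither was called. With a library left out, the lone library of a group is assumed to vary like the others.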
